A study of Mus musculus with 24 samples.

Results

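The 10 genes described here make, break down and regulate the polyamines. They were taken by symbol from a list (Odc1, Amd1, Srm, Sms, Sat1, Smox, Paox, Azin1, Oaz1 and Arg2), and each symbol matched 1 gene record among the 53392 genes of the deposited files. All 10 passed the filter on low counts in both kinds of sample. The samples were messenger RNA libraries from the kidneys of mice of the inbred FVB strain, with males and females compared after ischemic acute kidney injury and after sham surgery. Proximal tubules (PTs), the segment that reabsorbs most of the filtrate, were microdissected after enzymatic digestion, and endothelial cells (endo) were taken from the digest with CD31 microbeads. The tubule groups were injured males (IRI M PTs), sham males (Sham M PTs), injured females (IRI F PTs) and sham females (Sham F PTs), with 3 samples each. The endothelial groups were injured males (IRI M endo), sham males (Sham M endo) and injured females (IRI F endo), with 3 samples each, and sham females (Sham F endo), with 2. No transgene or other treatment is labelled, and the age of the mice and the time after injury are not given in the sources used here.

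Ornithine decarboxylase (Odc1) turns ornithine into putrescine, and Srm and Sms add aminopropyl groups, supplied through the decarboxylase Amd1, to give spermidine and then spermine. Breakdown runs through the acetyltransferase Sat1 and the oxidase Paox, or directly from spermine through Smox, and both oxidases release hydrogen peroxide. Antizyme (Oaz1) binds ornithine decarboxylase and sends it to the proteasome, the antizyme inhibitor Azin1 frees it, and the mitochondrial arginase Arg2 supplies ornithine. Mouse kidney ornithine decarboxylase is known for its response to androgens.

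Sequencing depth ran from 32592517 to 54906972 estimated reads per sample, and mitochondrial genes took 7.06% to 16.2% of them. Marker genes were summed in CPM, read counts scaled to library size, here over all 23 samples together. The 12 endothelial markers (Pecam1, Cdh5 and others) summed to 527 to 2490 CPM in endo samples and 160 to 476 CPM in PTs samples. The 12 proximal tubule markers summed to 7890 to 25708 CPM in endo samples and 12632 to 26903 CPM in PTs samples, so the endothelial isolates carried tubule RNA at levels near those of tubules. The 11 markers of the thick ascending limb and distal tubule summed to 8402.5 to 16577 CPM in endo samples and 1746 to 8238 CPM in PTs samples. IRI M PTs sample 3 stood apart from the other injured male tubules: its score over 9 tubular injury markers was 2.42, against 3.52 and 3.90 in samples 1 and 2, and its neutrophil marker score was 0.44, against 3.31 and 2.78. For injured against sham male tubules, the changes of Odc1, Sat1, Smox, Arg2 and Azin1 are given with and without this sample. Odc1, Sat1 and Smox are also given both ways for injured males against injured females and for the difference between the sexes in response. Other gene changes that involve injured male tubules, among them those of Sms and of the wider pathway list, are given only with this sample. In bulk samples such as these, fewer cells of a type and less RNA per cell cannot be told apart.

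The promoters of Odc1, Sat1 and Smox are shown because these 3 genes passed the test for injury in male tubules. Each run is the RefSeq sequence on GRCm38.p6, from 250 bases before to 50 bases after the start site, read 5′ to 3′ along the gene. The Odc1 window is chr12:17544623-17544922 on the plus strand, the Sat1 window chrX:155216400-155216699 on the minus strand, and the Smox window chr2:131491612-131491911 on the plus strand. Capitals mark matches, on either strand, to any of 5 motifs: CACGTG (the E-box bound by Myc and Max), TGANTCA (AP-1), TGACNNNGC (the core of the antioxidant response element), AGAACA (a hexamer of the androgen receptor element) and TATAAA (the TATA box).
Odc1: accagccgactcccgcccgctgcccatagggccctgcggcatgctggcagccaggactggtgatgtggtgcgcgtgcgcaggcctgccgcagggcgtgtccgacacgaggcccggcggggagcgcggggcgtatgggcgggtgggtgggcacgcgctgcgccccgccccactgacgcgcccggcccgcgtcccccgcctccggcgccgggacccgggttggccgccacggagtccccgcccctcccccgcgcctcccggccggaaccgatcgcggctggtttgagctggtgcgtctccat
Sat1: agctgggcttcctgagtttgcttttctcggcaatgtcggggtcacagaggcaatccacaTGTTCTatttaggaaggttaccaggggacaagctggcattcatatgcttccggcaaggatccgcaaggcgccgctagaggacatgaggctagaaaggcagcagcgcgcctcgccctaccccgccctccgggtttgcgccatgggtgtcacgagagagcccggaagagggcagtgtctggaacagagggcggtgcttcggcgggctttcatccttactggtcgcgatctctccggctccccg
Smox: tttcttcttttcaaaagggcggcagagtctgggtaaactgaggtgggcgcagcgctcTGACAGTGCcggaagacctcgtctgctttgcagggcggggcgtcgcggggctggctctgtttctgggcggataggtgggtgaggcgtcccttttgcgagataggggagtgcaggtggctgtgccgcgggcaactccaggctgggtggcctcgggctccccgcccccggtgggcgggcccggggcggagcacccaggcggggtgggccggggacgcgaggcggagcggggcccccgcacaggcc
Sat1 held AGAACA, read on the other strand as TGTTCT, with its first base at -191 from the start site, and AGAACA occurs in 18.97% of the 32851 promoters of this length. Smox held TGACNNNGC at -193, a motif found in 12.39% of them. None of the 5 motifs stood in the Odc1 window, of which 78.0% was G or C. The shares of all promoters were 7.15% for CACGTG, 7.81% for TGANTCA and 13.62% for TATAAA. Of the other members with a promoter sequence, Sms held CACGTG at -196 and Oaz1 held TGACNNNGC at -13 and TATAAA at -3, and neither Amd1 nor Paox held a match. These letters are a description and no evidence of binding.

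In male tubules, the transcript of the enzyme that starts polyamine synthesis was lower after injury, and those of a pair of enzymes that break polyamines down were higher. Against Sham M PTs, 3 of the 10 genes passed the test in IRI M PTs: Odc1 fell, and Sat1 and Smox rose. Over all genes 19.0% were called in this comparison, 1939 higher and 1549 lower, so 3 of 10 is not by itself a result about these genes. The median log2 change was 0.06 over the 10 genes and -0.03 over all genes tested.

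Odc1 (ENSMUSG00000011179.8) lies at chr12:17544794-17551505 on the plus strand of GRCm38. Its level was 1075, 1121 and 1227 CPM in IRI M PTs, against 3142, 2959 and 2528 CPM in Sham M PTs. Every injured male tubule sample lay below every sham male one, and the 3 injured samples lay close together. The means were 1141 ± 77.8 CPM in IRI M PTs and 2877 ± 315 CPM in Sham M PTs (SD, n = 3 each), a log2 change of -1.33 ± 0.16 (SE, edgeR quasi-likelihood test with Benjamini-Hochberg adjustment, adjusted p = 8.8e-04). Without IRI M PTs sample 3 the log2 change was -1.39.

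Sat1 (ENSMUSG00000025283.15, chrX:155213132-155216449, minus strand) is the acetyltransferase that commits spermidine and spermine to breakdown and export. It had 624, 684 and 333 CPM in IRI M PTs, against 253, 243 and 166 CPM in Sham M PTs. The groups did not overlap, and sample 3 was the lowest of the injured males. The log2 change was 1.31 ± 0.26 (SE, adjusted p = 0.0093), and 1.57 ± 0.19 without IRI M PTs sample 3.

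Smox (ENSMUSG00000027333.18, chr2:131491496-131525922, plus strand), the spermine oxidase, had the greatest rise of the 3. Its levels were 49.9, 47.2 and 9.98 CPM in IRI M PTs, against 3.13, 4.62 and 5.18 CPM in Sham M PTs. Samples 1 and 2 of the injured males stood far above all other tubules, and sample 3 lay between them and the sham range. The log2 change was 3.05 ± 0.49 (SE, adjusted p = 0.0037), 3.49 ± 0.23 without sample 3, and 3.82 when the fit allowed for the effective transcript lengths. In the injured male tubules 54.1%, 49.2% and 50.4% of the Smox TPM (a depth-scaled level per transcript length) were assigned to Smox-212, a processed transcript of 326 bases that codes for no protein. The 11 coding models together held 27.9%, 34.5% and 21.6%, at 9.84, 10.04 and 1.83 TPM in IRI M PTs, against 0.583, 1.03 and 0.919 TPM in Sham M PTs. The coding models were thus also higher in every injured male tubule sample, with sample 3 the lowest.

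Arg2 (ENSMUSG00000021125.6, chr12:79130777-79156301, plus strand), the arginase of mitochondria, was 24.4, 26.7 and 15.02 CPM in IRI M PTs, against 3.51, 1.33 and 0 CPM in Sham M PTs. All injured male tubules lay above all sham male ones. Sham M PTs sample 3 was listed at 0 reads, which allows up to 0.0710 CPM at a floor of 3 counts, a limit that covers counting error only. The log2 change of 3.77 ± 1.34 (SE) did not pass the test (adjusted p = 0.069). Without IRI M PTs sample 3 it was 3.98 (adjusted p = 0.036), in a fit that called 8203 of all 19309 genes tested. Arg2 shares 285 of its 1428 exon bases with Vti1b and 116 with Gm48780, both on the opposite strand, and the sources used here do not say whether counting used strand, so its level is uncertain. Vti1b itself had a log2 change of -0.00 ± 0.14 (adjusted p = 0.99).

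The remaining 6 genes did not pass in this comparison. Sms (ENSMUSG00000071708.11, chrX:157443855-157492287, minus strand), which makes spermine, was 30.3, 34.8 and 26.5 CPM in IRI M PTs, against 35.8, 38.4 and 43.1 CPM in Sham M PTs. These groups did not overlap, and the log2 change was -0.36 ± 0.14 (SE, adjusted p = 0.097). Amd1, Srm, Paox, Azin1 and Oaz1 had log2 changes between -0.26 and 0.22, with adjusted p of at least 0.28. Azin1 fell without IRI M PTs sample 3 (log2 change -0.44, adjusted p = 0.016), in the fit that called 8203 of all 19309 genes tested. Azin1 was 117 and 161 CPM in samples 1 and 2 and 197 CPM in sample 3, against 194, 188 and 186 CPM in Sham M PTs.

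**Figure D1:**
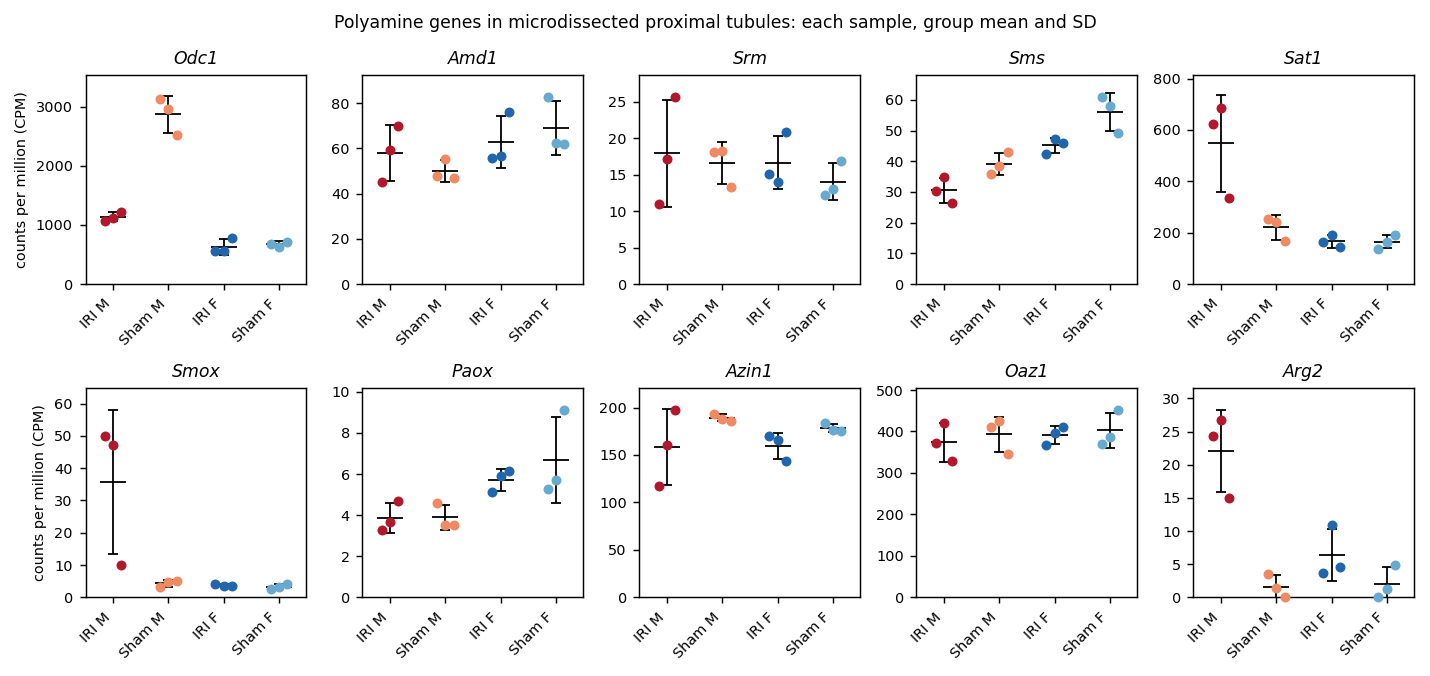
Level of each of the 10 genes in CPM in every proximal tubule sample (points), with the group mean and SD (bars) over 3 samples, on axes that start at 0. Odc1 was 2528 to 3142 CPM in sham males and no higher than 1227 CPM elsewhere, while Sat1, Smox and Arg2 were highest in the injured males, with sample 3 the lowest of them.

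Some markers of other cells moved with the male tubule injury comparison. The 10 macrophage markers summed to 140 to 290 CPM in IRI M PTs and 27.7 to 45.8 CPM in Sham M PTs. Of these, 2 of 9 tested were called higher. The median log2 change of the 9 was -0.03, so not every marker rose. Their mean score was 0.48, 0.91 and 0.63 in IRI M PTs, against 0.08, -0.81 and -0.38 in Sham M PTs, without overlap. Neutrophil markers summed to 5.07 to 37.1 CPM in IRI M PTs and 1.64 to 2.34 CPM in Sham M PTs, with 4 of 7 called higher. Proximal tubule markers summed to 12632 to 17020 CPM in IRI M PTs and 23095 to 26158 CPM in Sham M PTs, and 8 of 12 were called lower. Their part in the changes of Odc1, Sat1, Smox and Arg2 was not tested. In a fit of only these 2 groups Odc1 alone passed, with Sat1 at 1.35 (adjusted p = 0.085) and Smox at 3.08 (adjusted p = 0.067). That fit called 154 of all 16862 genes tested, against 3488 of 18369 in the fit of all tubule samples.

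In female tubules, none of the 10 genes was called after injury. The count was 0 by edgeR and 0 by DESeq2. By edgeR 0 of the 10 had an unadjusted p under 0.05, where 2032 of all 18369 genes tested did. Over all genes 0.0109% were called in this comparison. That background depended on the fit: 2 genes were called here and 1167 when only the female tubule groups were fitted, still with none of the 10 among them. Odc1 was 555, 554 and 787 CPM in IRI F PTs, against 679, 623 and 720 CPM in Sham F PTs, so the groups overlapped around a log2 change of -0.09 ± 0.16 (SE). Sat1 was 165, 193 and 143 CPM in IRI F PTs, against 138, 165 and 189 CPM in Sham F PTs, and the log2 change was 0.02 ± 0.26. Smox stayed within 3.43 to 4.05 CPM in IRI F PTs and 2.57 to 4.07 CPM in Sham F PTs. Arg2 was 3.70, 10.9 and 4.57 CPM in IRI F PTs, against 0, 1.19 and 4.87 CPM in Sham F PTs, with overlap and a log2 change of 1.66 ± 1.25. Sham F PTs sample 1 had no Arg2 read, which allows up to 0.0921 CPM. Tubular injury markers summed to 2371 to 2661 CPM in IRI F PTs and 1313 to 1654 CPM in Sham F PTs, against 5525 to 6619 CPM in IRI M PTs and 402 to 985 CPM in Sham M PTs.

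The difference between the sexes in the tubule response to injury was tested as an interaction. It passed for Odc1 alone, whose change was more negative in males by 1.24 on the log2 scale (log2 difference -1.24 ± 0.22 SE, adjusted p = 0.033). Over all genes 0.855% were called. Smox had a difference of 2.86 ± 0.67 (adjusted p = 0.065) and Sat1 one of 1.28 ± 0.37 (adjusted p = 0.11), and neither passed. Without IRI M PTs sample 3 all 3 passed, with Odc1 at -1.30, Sat1 at 1.54 and Smox at 3.30. That fit called 5892 of all 19309 genes tested, so these 3 calls are not by themselves a result about these genes. The Odc1 call held without either of 2 samples (Sham M PTs 3 or IRI M PTs 3) and was lost without any of the other 10, with adjusted p between 0.075 and 0.11 and a log2 difference between -1.33 and -1.06. It was also lost with the replicate block (adjusted p = 0.065), with length offsets (adjusted p = 0.064), with technical library 3 alone (adjusted p = 0.052) and with the distal marker score as a covariate (-1.32, adjusted p = 0.14). Over all genes these last fits called 54, 59, 119 and 0 in that order. Those without 1 of the other 10 samples called 19 to 55, against 157 in the fit of all tubule samples. The thick ascending limb and distal markers summed to 6371 to 8238 CPM in IRI F PTs and 2038 to 2434 CPM in Sham F PTs, against 2344 to 5627 CPM in IRI M PTs and 1746 to 4377 CPM in Sham M PTs.

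Sham male tubules had far more Odc1 transcript than sham female ones. Odc1 was 3142, 2959 and 2528 CPM in Sham M PTs, against 679, 623 and 720 CPM in Sham F PTs. Every male sample lay far above every female one, and the log2 difference was 2.09 ± 0.16 (SE, adjusted p = 3.4e-05). Odc1 was the 1 gene of the 10 that passed, where 5.80% of all genes were called. Leaving out any 1 sample kept this call, with log2 differences from 2.03 to 2.18.

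No other gene of the 10 passed between sham males and sham females in the fit of all tubule groups. Sms was 35.8, 38.4 and 43.1 CPM in Sham M PTs, against 61.0, 58.0 and 49.1 CPM in Sham F PTs, without overlap (log2 difference -0.52 ± 0.14 SE, adjusted p = 0.057). It passed in an edgeR fit of only these groups (adjusted p = 0.041), where 1709 of all 16689 genes tested were called. It also passed by edgeR without IRI M PTs sample 3 (adjusted p = 0.011), where 2626 of all 19309 genes tested were called. By DESeq2 Sms passed (adjusted p = 0.03), and so did Paox (log2 difference -0.78, adjusted p = 0.046), where 1957 of all 33076 genes were called. Paox (ENSMUSG00000025464.15, chr7:140115799-140137224, plus strand), the oxidase of acetylated polyamines, was 4.60, 3.52 and 3.54 CPM in Sham M PTs, against 5.29, 5.71 and 9.10 CPM in Sham F PTs. Amd1 (ENSMUSG00000075232.5, chr10:40287458-40302186, minus strand) was 47.6, 55.5 and 47.0 CPM in Sham M PTs, against 82.7, 62.2 and 62.1 CPM in Sham F PTs. These Amd1 groups did not overlap either, and its log2 difference of -0.46 ± 0.19 did not pass (adjusted p = 0.21). Arg2, Smox, Sat1, Srm, Azin1 and Oaz1 had log2 differences from -0.33 to 0.43, none of which passed.

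After injury, 4 of the 10 genes differed between male and female tubules, where 23.3% of all genes were called. Odc1, at 1075 to 1227 CPM in IRI M PTs and 554 to 787 CPM in IRI F PTs, was still higher in males, by a log2 difference of 0.85 ± 0.16 (adjusted p = 0.0045). Sat1 was higher in males by 1.71 ± 0.27 (333 to 684 CPM in IRI M PTs and 143 to 193 CPM in IRI F PTs, adjusted p = 0.0019). Smox was higher in males by 3.26 ± 0.50 (9.98 to 49.9 CPM in IRI M PTs and 3.43 to 4.05 CPM in IRI F PTs, adjusted p = 0.0018). No groups overlapped for these 3 genes, and without IRI M PTs sample 3 the differences were 0.80, 1.97 and 3.71.

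Sms was lower in the injured males, at 30.3, 34.8 and 26.5 CPM in IRI M PTs, against 42.5, 47.2 and 45.8 CPM in IRI F PTs. Its log2 difference was -0.56 ± 0.14 (adjusted p = 0.017), and the call was lost without IRI F PTs sample 2 (-0.53, adjusted p = 0.067), IRI F PTs sample 3 (-0.55, adjusted p = 0.058) or IRI M PTs sample 1 (-0.56, adjusted p = 0.057). It was also lost without the low-count filter (-0.51, adjusted p = 0.063) and with only these groups in the fit (-0.55, adjusted p = 0.072). Reads of the pseudogene Sms-ps made up 18.7% to 31.6% of the reads of Sms and Sms-ps together, so Sms is uncertain where the copy shares its reads, and Sms-ps had a log2 difference of -0.53 ± 0.18 in this comparison (adjusted p = 0.055). Markers of the thick ascending limb and distal tubule summed to 2344 to 5627 CPM in IRI M PTs and 6371 to 8238 CPM in IRI F PTs. With the distal marker score as a covariate Sat1 alone passed (2.52, adjusted p = 0.023), with Odc1 at 0.79 (adjusted p = 0.14), Smox at 3.52 (adjusted p = 0.056) and Sms at -0.37 (adjusted p = 0.44). These tubule comparisons share samples, so their values are not independent of each other.

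**Figure D2:**
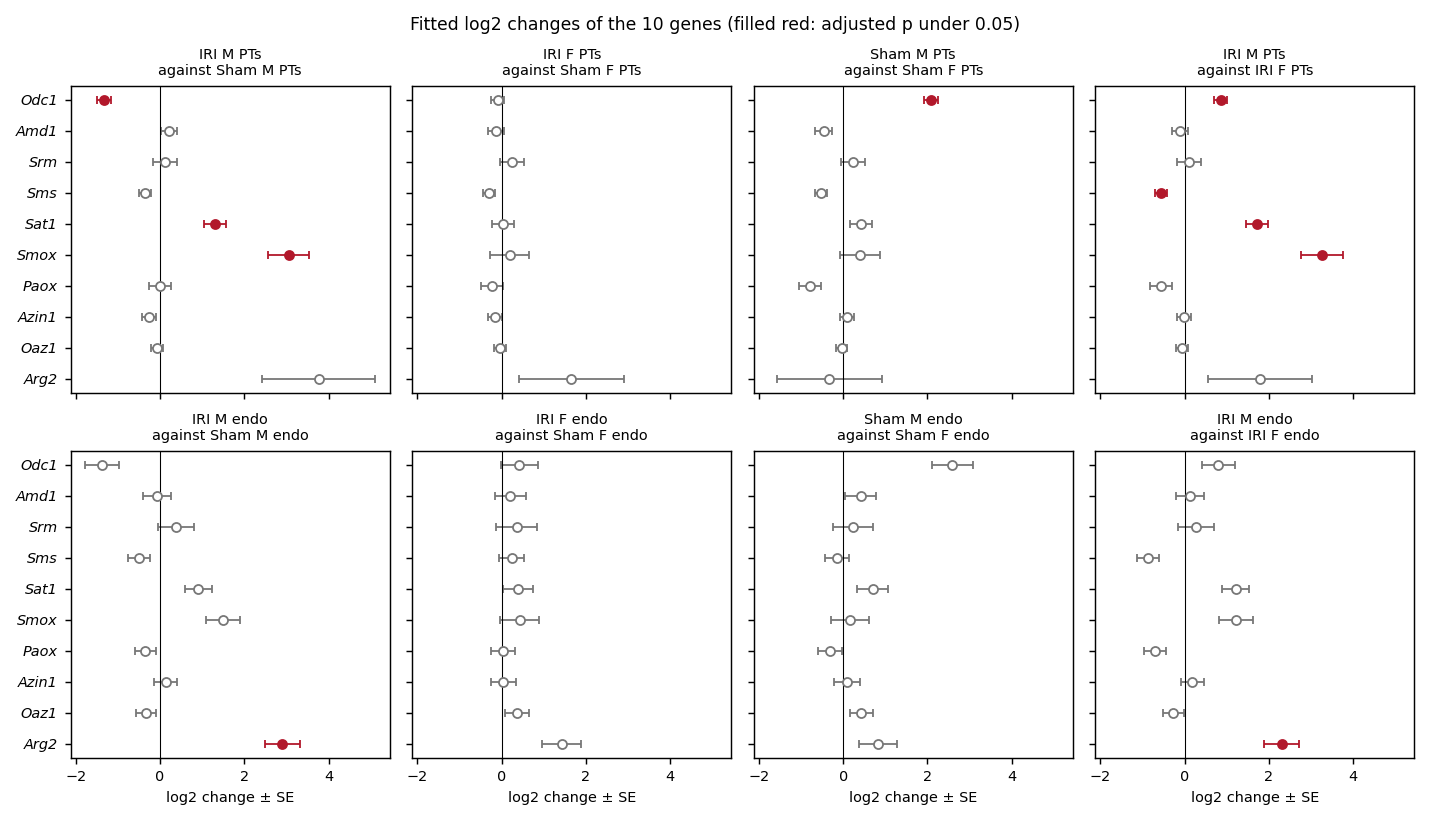
Fitted log2 change with its SE for each gene in 8 comparisons, tubules above and endothelial isolates below, with filled red points for adjusted p under 0.05. In tubules Odc1 lies at -1.33 for injury in males and at 2.09 for sham males against sham females, and all 10 points of female injury are open.

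Levels of different genes can be compared only per transcript length, so TPM is used for that. In Sham M PTs Odc1 was the most abundant of the 10, with a mean of 946 TPM and samples from 830.3 to 1007 TPM (n = 3). Oaz1 followed at 437 ± 54.96 TPM and Sat1 at 147 ± 33.5 TPM (SD). In IRI M PTs Oaz1 (405 ± 46.2 TPM), Odc1 (379 ± 114 TPM) and Sat1 (350 ± 68.3 TPM) lay within their spread of each other. In IRI F PTs the order was Oaz1 (503 ± 5.00 TPM), Odc1 (242 ± 44.7 TPM) and Sat1 (133 ± 25.7 TPM), and Sham F PTs had the same order, at 456 ± 16.9, 230 ± 10.1 and 108 ± 20.7 TPM. Azin1 followed at 53.6 to 63.2 TPM in the 4 tubule group means, and the other 6 genes averaged at most 25.8 TPM in any of them.

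The ratio of Odc1 to Sat1 TPM sets the first enzyme of synthesis against the first of breakdown at the transcript level. It was 0.817, 0.793 and 1.88 in IRI M PTs, against 6.11, 5.96 and 7.66 in Sham M PTs. It was 1.67, 1.32 and 2.78 in IRI F PTs, against 2.84, 1.79 and 1.99 in Sham F PTs. Sham male tubules thus lay above all other tubules, and 2 of the 3 injured male samples lay below all of them. The coding model Odc1-201 took 49.1% to 58.2% of Odc1 TPM over the 23 samples and the retained intron model Odc1-204 27.3% to 32.9%, so Odc1 TPM is in part the level of a short model of 561 bases. The same limit holds for Sat1, where the retained intron model Sat1-204 of 525 bases took 15.7% to 31.7% of the TPM.

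**Figure D3:**
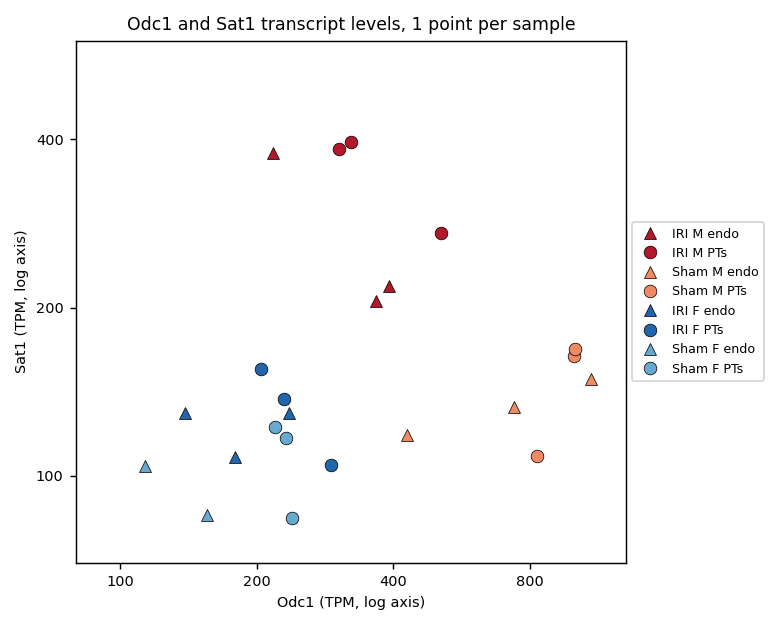
Sat1 against Odc1 in TPM, on log axes, for each of the 23 samples, with circles for tubules and triangles for endothelial isolates. Injured males lie highest, at 205 to 395 TPM of Sat1, and sham males lie to the right, at 429 to 1090 TPM of Odc1, where 1 injured male tubule sample, at 509.7 TPM, passes the lowest of them.

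Neither member that acts on the ornithine decarboxylase protein, Oaz1 or Azin1, passed in any of the 12 comparisons. Oaz1 (ENSMUSG00000035242.15, chr10:80826656-80829290, plus strand) was 373, 420 and 328 CPM in IRI M PTs, against 410, 424 and 345 CPM in Sham M PTs, and its log2 change was -0.07 ± 0.14 (adjusted p = 0.74). Azin1 (ENSMUSG00000037458.15, chr15:38487427-38519266, minus strand) had a log2 change of -0.26 ± 0.16 in the same comparison (adjusted p = 0.28). The tests do not show that either was equal between groups. Spermidine synthase Srm (ENSMUSG00000006442.10, chr4:148591503-148594993, plus strand) ranged from 11.0 to 25.7 CPM over the tubules and passed no comparison either. Oaz1-ps took 4.55% to 6.40% of the reads of Oaz1 and its copy, and Amd2 took 7.75% to 17.6% of those of Amd1 and Amd2.

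In the endothelial isolates Arg2 rose after injury in males. Arg2 was 25.7, 66.1 and 26.1 CPM in IRI M endo, against 5.08, 4.12 and 6.55 CPM in Sham M endo. All injured male isolates lay above all other isolates, and sample 2 stood highest. The log2 change was 2.90 ± 0.42 (SE, adjusted p = 0.016), and Arg2 was the 1 gene of the 10 called, where 0.864% of all genes were. Vti1b, which overlaps Arg2, had a log2 change of -0.11 ± 0.24 in this comparison (adjusted p = 0.86).

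Without IRI M endo sample 2 the Arg2 change was 2.30 (adjusted p = 0.0074), in a fit that called 341 of all 19503 genes tested. It lost its call without Sham M endo sample 1 (2.90, adjusted p = 0.094) or sample 2 (2.75, adjusted p = 0.11), with the replicate block (2.89, adjusted p = 0.06), with only these groups in the fit (2.96, adjusted p = 0.13) and with the proximal tubule marker score as a covariate (1.93, adjusted p = 0.26). Over all genes the fits that lost the call gave 4, 0, 51, 2 and 0 calls in that order, against 172 in the fit of all endothelial samples. Sample 2 of IRI M endo also had the highest neutrophil marker sum, 126 CPM, against 12.8 and 15.5 CPM in the other IRI M endo samples and 3.35 to 5.36 CPM in Sham M endo. Macrophage markers summed to 189 to 330 CPM in IRI M endo and 24.3 to 121 CPM in Sham M endo, and proximal tubule markers to 7890 to 10380 CPM in IRI M endo and 11036 to 19237 CPM in Sham M endo. The part of these cells in the Arg2 change was not tested beyond the covariate.

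The other members of the male isolates did not pass. Odc1 was 1047, 668 and 969 CPM in IRI M endo, against 2482, 3389 and 1103 CPM in Sham M endo, with no overlap and a log2 change of -1.38 ± 0.40 (adjusted p = 0.14). Smox was 11.7, 31.0 and 12.6 CPM in IRI M endo, against 6.86, 5.58 and 7.17 CPM in Sham M endo (log2 change 1.50 ± 0.41, adjusted p = 0.11). Sat1 was 277, 582 and 259 CPM in IRI M endo, against 222, 230 and 145 CPM in Sham M endo (log2 change 0.90 ± 0.32, adjusted p = 0.22). None of these groups overlapped, and without Sham M endo sample 3 Odc1 passed (-1.71, adjusted p = 0.021), in a fit that called 703 of all 19526 genes tested. That sample, the lowest of Sham M endo in Odc1, had endothelial markers at 2233 CPM, against 527 and 566 CPM in the other 2, and macrophage markers at 121 CPM, against 25.0 and 24.3 CPM. Its proximal tubule markers summed to 11036 CPM, against 16877 and 19237 CPM, and its distal markers to 16577 CPM, against 8984 and 8402.5 CPM. The part of this makeup in the Odc1 values was not tested. By DESeq2 Odc1 (adjusted p = 0.024) and Smox (adjusted p = 0.013) passed with Arg2, where 1177 of all 33996 genes were called. The authors' deposited table of male isolates gives Odc1 and Arg2 adjusted p of 0.043 and 2.3e-08.

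Injured female isolates showed no call against sham female ones, by edgeR or DESeq2, where 0% of all genes were called by edgeR. At an unadjusted p under 0.05 by edgeR there was 1 member, Arg2, and 475 of all 19910 genes tested. Arg2 was 10.5, 5.61 and 7.83 CPM in IRI F endo, against 3.38 and 2.56 CPM in Sham F endo. These groups did not overlap, and the log2 change was 1.42 ± 0.47 (adjusted p = 1). The difference between the sexes in the injury response of the isolates gave 0 calls by edgeR and 0 by DESeq2, against 0% of all genes by edgeR. By edgeR 2 members (Odc1 at -1.80 ± 0.60 and Arg2 at 1.48 ± 0.59) had an unadjusted p under 0.05, where 1294 of all 19910 genes tested did.

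Between the sexes, injured male isolates had more Arg2 than injured female ones. The log2 difference was 2.30 ± 0.41 (adjusted p = 0.021), from 25.7 to 66.1 CPM in IRI M endo and 5.61 to 10.5 CPM in IRI F endo, and Arg2 alone of the 10 passed, where 1.50% of all genes were called. The difference was 1.70 without IRI M endo sample 2 and lost its call without any 1 of the 3 IRI F endo samples (adjusted p from 0.06 to 0.12), with the replicate block (2.29, adjusted p = 0.079), with only these groups in the fit (2.34, adjusted p = 0.083) and with the proximal tubule marker score (1.04, adjusted p = 0.5). Over all genes 77 to 106 were called without an IRI F endo sample. The next fits called 133, 132 and 40 in that order, against 298 in the fit of all endothelial samples. Macrophage markers summed to 189 to 330 CPM in IRI M endo and 76.3 to 108 CPM in IRI F endo, and proximal tubule markers to 7890 to 10380 CPM in IRI M endo and 15348 to 24323 CPM in IRI F endo. At an unadjusted p under 0.05 there were 5 members, and 2920 of all 19910 genes tested. The other 4 members were Sat1, Sms, Smox and Paox, and none of their groups overlapped. The share of all genes without overlap is not given here. Sat1 was 277, 582 and 259 CPM in IRI M endo, against 174, 130.5 and 178 CPM in IRI F endo (log2 difference 1.21 ± 0.32, adjusted p = 0.11). Sms was 30.9, 19.2 and 28.4 CPM in IRI M endo, against 41.8, 48.9 and 53.6 CPM in IRI F endo (-0.88 ± 0.26, adjusted p = 0.15). Both passed by DESeq2 (adjusted p = 0.013 and 0.048), where 1096 of all 33996 genes were called. Sat1 also passed without the low-count filter (adjusted p = 0.025), where 824 of all 34154 were called. Smox (1.23 ± 0.41, adjusted p = 0.19) and Paox (-0.70 ± 0.25, adjusted p = 0.23) did not pass. In sham isolates 0 genes of the 10 passed by edgeR, where 0.432% of all genes were called. By DESeq2 1, Odc1, passed, where 381 of all 33996 genes were called. By edgeR 1 of the 10 had an unadjusted p under 0.05, where 1355 of all 19910 genes tested did. Odc1 was 2482, 3389 and 1103 CPM in Sham M endo, against 297 and 473 CPM in Sham F endo. The groups did not overlap, and the log2 difference of 2.59 ± 0.49 had an adjusted p of 0.054, and 0.0077 without Sham M endo sample 3 (2.93). That last fit called 218 of all 19526 genes tested.

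**Figure D4:**
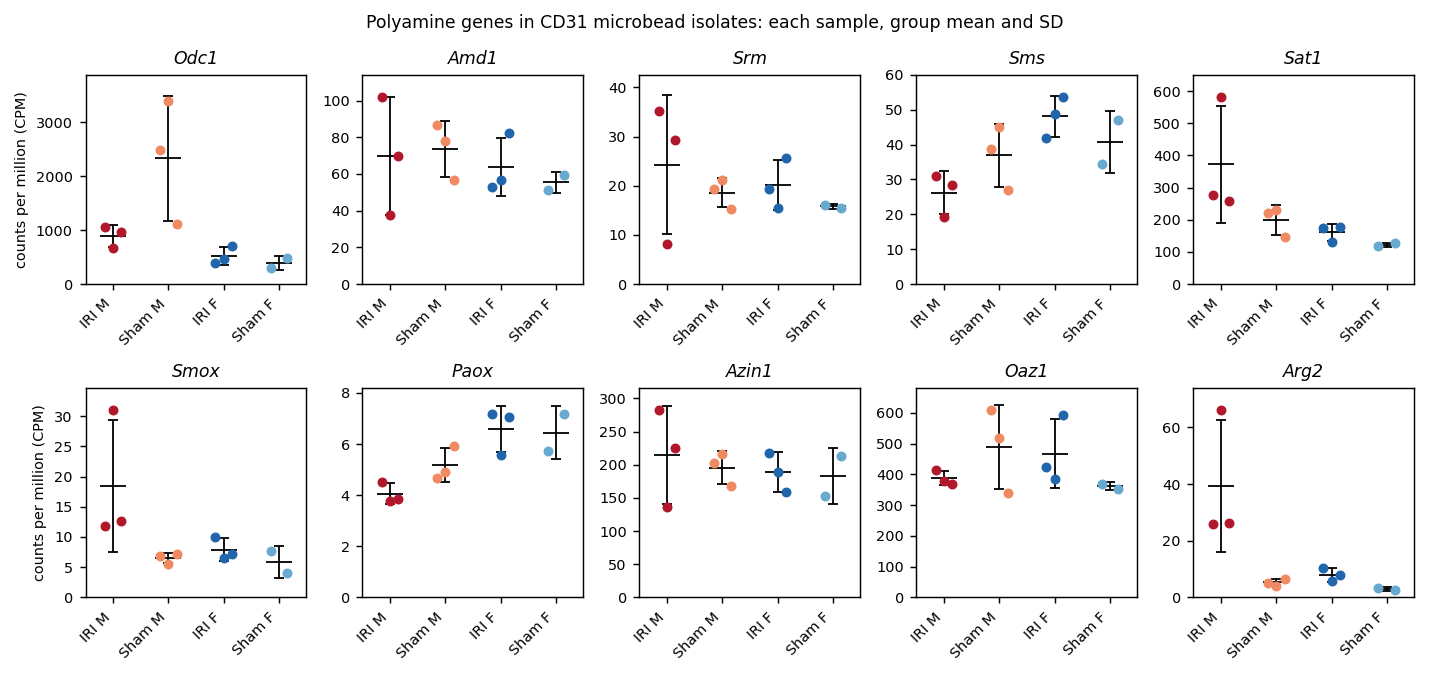
Level of each of the 10 genes in CPM in every endothelial isolate (points), with the group mean and SD (bars) over 3 samples, or 2 in sham females, on axes that start at 0. Arg2 was 25.7 to 66.1 CPM in injured males and at most 10.5 CPM elsewhere, and Odc1 was 1103 to 3389 CPM in sham males.

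Set against tubules in a fit of all 23 samples, sham endothelial isolates had less Odc1, with a log2 difference of -0.70 ± 0.22 (adjusted p = 0.046). Odc1 was 1 of 10 called, where 12.3% of all genes were. On the joint scale it was 2247, 3146 and 1084 CPM in Sham M endo, against 3318, 3130 and 2632 CPM in Sham M PTs. In females it was 293 and 447 CPM in Sham F endo, against 705, 652 and 744 CPM in Sham F PTs. The female groups did not overlap, and the male ones did. Thick ascending limb and distal markers summed to 8402.5 to 16577 CPM in Sham M endo and 11859 to 14609 CPM in Sham F endo, against 1746 to 4377 CPM in Sham M PTs and 2038 to 2434 CPM in Sham F PTs, and their part in this difference was not tested. Endo and PTs samples share title numbers, which the labels do not say mark the same mice. With these numbers as a replicate block the Odc1 difference was -0.76 (adjusted p = 0.034). This call was lost without any 1 of 10 of the 11 sham samples, with adjusted p up to 0.26. It held without Sham M endo sample 2, where Sms passed too (-0.50, adjusted p = 0.036) and 2676 of all 21175 genes tested were called. After injury 0 genes of the 10 differed between isolates and tubules by edgeR or DESeq2, where edgeR called 4.69% of all genes. By edgeR 2 of the 10 had an unadjusted p under 0.05, where 3637 of all 21206 genes tested did. Without IRI M endo sample 2, Sat1 passed this comparison (-0.68, adjusted p = 0.027), in a fit that called 1622 of all 20952 genes tested.

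A list of 46 further genes of the pathway, of which 41 were tested in tubules and 43 in isolates, was read by role. In IRI M PTs against Sham M PTs, 7 rose, 8 fell and 26 did not pass, where 19.0% of all genes were called. The 3 with the smallest adjusted p were Slc22a2, an organic cation transporter that carries polyamines, Gamt, which makes creatine, and Slc3a2, the heavy chain of amino acid exchangers. Slc22a2 fell to 183, 164 and 185 CPM in IRI M PTs, against 316, 310.0 and 321 CPM in Sham M PTs (log2 change -0.83 ± 0.12, adjusted p = 0.0024). Slc3a2 rose to 368, 332 and 307 CPM in IRI M PTs, against 176, 179 and 224 CPM in Sham M PTs (0.80 ± 0.13, adjusted p = 0.0039). Gamt fell by 1.25 on the log2 scale (adjusted p = 0.0076).

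By role, 2 of 9 transport genes rose and 3 fell, 3 of 8 regulators rose and 1 fell, and 1 of 7 genes of arginine and ornithine supply rose and 2 fell. Of the 8 genes of the aminopropyl donor and methionine salvage 2 fell, of the 4 genes that modify eIF5A or encode it 1 rose, and none of the 3 acetylation and oxidation genes or the 2 antizyme genes passed. None of the 41 passed in IRI F PTs against Sham F PTs by edgeR, where 0.0109% of all genes were called. Slc3a2 alone passed the sex difference in response (log2 difference 1.04 ± 0.18, adjusted p = 0.033), where 0.855% of all genes were called.

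Sham male tubules had 6 of the 41 lower than sham female ones and 0 higher, where 5.80% of all genes were called. Oat, ornithine aminotransferase, was 95.4, 71.7 and 155 CPM in Sham M PTs, against 592, 626 and 546 CPM in Sham F PTs (log2 difference -2.45 ± 0.30, adjusted p = 5.5e-04). Slc3a2 was lower by a log2 difference of -1.13 ± 0.13 (adjusted p = 4.7e-04). Atp13a4, a polyamine transporter, was 0.0760, 0 and 0 CPM in Sham M PTs, against 16.8, 15.4 and 11.7 CPM in Sham F PTs. Agmat, agmatinase, was lower by a log2 difference of -1.89 ± 0.40 (adjusted p = 0.017). Of the 6, 4 were among the 7 genes of arginine and ornithine supply and 2 among the transport genes.

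After injury 5 of the 41 were higher and 10 lower in IRI M PTs than in IRI F PTs, where 23.3% of all genes were called, the 4 with the smallest adjusted p being Gamt (log2 difference -1.81 ± 0.24), Oat (-2.14 ± 0.29), Atp13a4 and Agmat (-2.19 ± 0.41). In isolates, Myc, the transcription factor that acts on Odc1, rose in IRI M endo against Sham M endo (3.22 ± 0.52, adjusted p = 0.023). It was the 1 call of 43, where 0.864% of all genes were called. Atp13a4, Gamt and Oat were lower in IRI M endo than in IRI F endo, where 1.50% of all genes were called. Atp13a4 and Oat were lower in Sham M endo than in Sham F endo, where 0.432% of all genes were called. In sham isolates against sham tubules, 12.3% of all genes were called. Aoc1, the diamine oxidase, was higher there (2.42 ± 0.54) and so was Mycn (1.69 ± 0.48). Myc (-2.15 ± 0.51) and Ahcy (-0.57 ± 0.18) were lower. Myc was 40.0, 39.3 and 3.13 CPM in Sham M PTs and 4.61 to 7.13 CPM in Sham F PTs. It was 1.63 to 4.19 CPM in Sham M endo and 2.87 to 4.26 CPM in Sham F endo, with each isolation scaled on its own. Sham M PTs sample 3 thus lay within the range of the sham isolates.

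**Figure D5:**
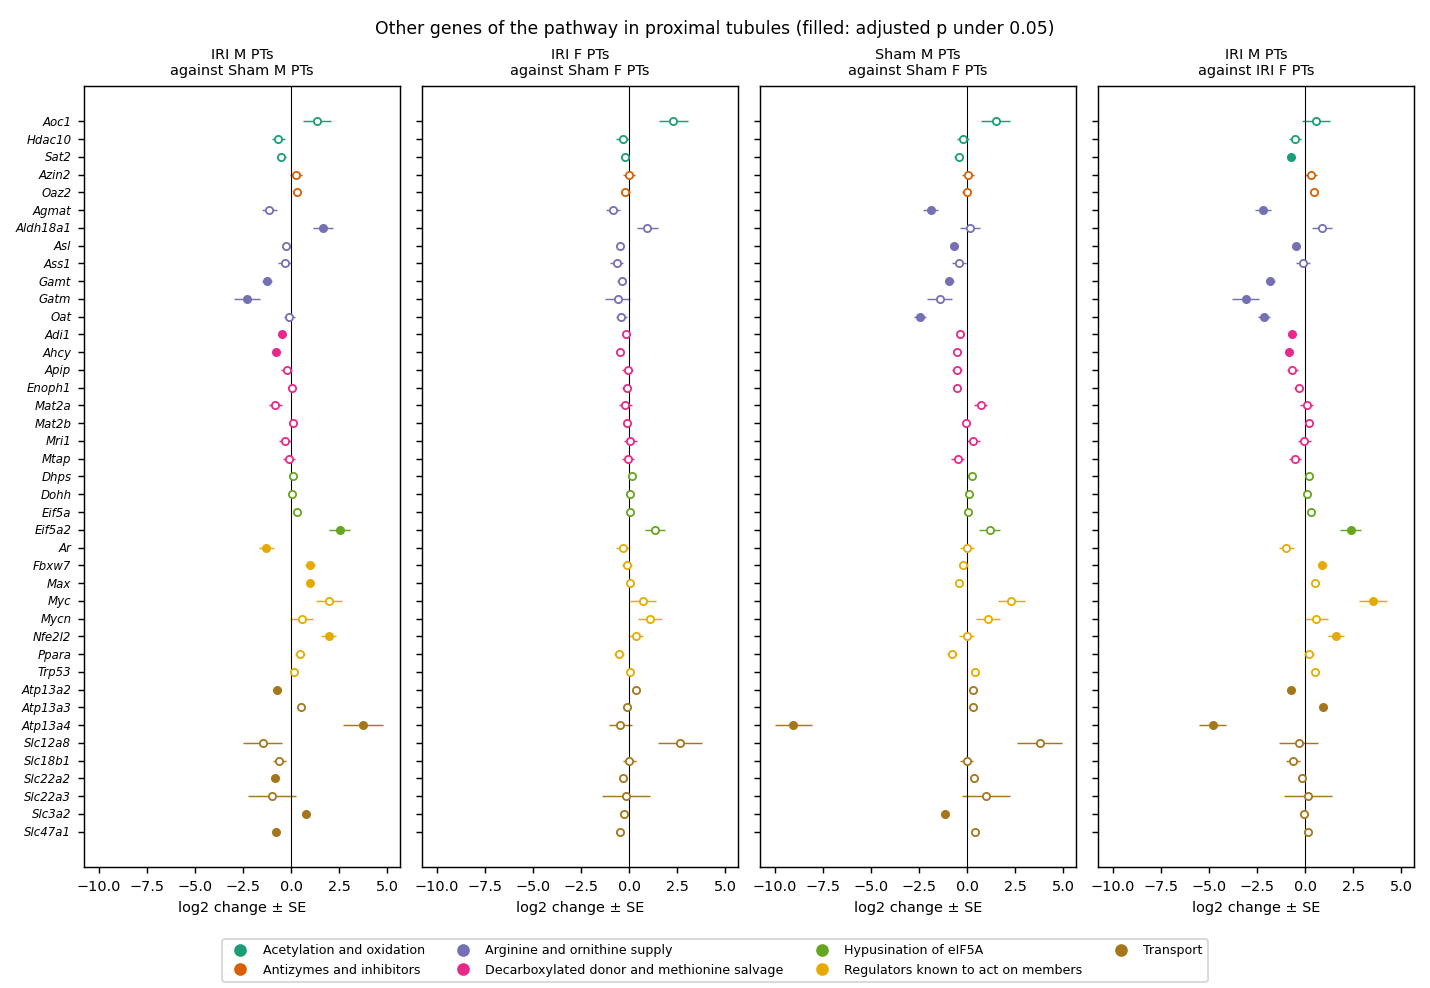
Fitted log2 change with its SE for the 41 other pathway genes tested in tubules, coloured by role, in 4 comparisons, with filled points for adjusted p under 0.05. In female injury all points are open, and in sham males against sham females the 6 filled points all lie below 0.

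Over the 12 tubule samples, the protein-coding genes whose log2 CPM followed each of 3 members most closely were ranked by Pearson's r among 14571 genes. For Odc1 these were Sap30 (r = 0.99), Csad (0.99), Fmo5 (0.98), Agps (0.98) and Sec23b (0.98). For Sat1 they were Agpat2 (0.99), Tnfrsf12a (0.99), Rap1b (0.98), Tmbim1 (0.98) and March7 (0.98). Amd1 had no follower as close: Emc8 (0.87), Smug1 (0.86), Armc6 (0.86), Ttc22 (0.85) and Enoph1 (0.82), the last a gene of methionine salvage. The samples share groups and depth, so these correlations describe the pattern over groups.

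The authors' deposited tables list all 10 genes in 8 comparisons. In the authors' deposited table of male tubule injury Odc1, Sat1 and Smox pass an adjusted p of 0.05, with log2 changes of -1.26, 1.23 and 4.27. The deposited Arg2 change there is 0.25 (adjusted p = 0.092), against 3.77 in the edgeR fit used here. Deposited and fitted log2 changes can thus differ widely in size, and their sizes are not compared here. The authors' deposited table of sham males against sham females lists 1 passing gene in tubules, Odc1 at 2.03, and 1 in isolates, Odc1 at 2.41. In the authors' deposited table of injured males against injured females, 4 genes pass in tubules and 2, Arg2 and Sat1, in isolates. Neither of the authors' deposited tables of female injury lists a passing gene among the 10.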

How the data were processed

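The authors quantified poly-A RNA libraries with Salmon 0.13.1 against GRCm38 and compared groups with DESeq2, per the submitters' processing notes and the labels. The 24 deposited quantification files list, for each transcript, an unnormalized expected count (an estimated number of reads), TPM and the effective length. The deposited comparison tables give the authors' log2 fold changes, their errors and adjusted p-values. Counts were summed per gene and rounded, and the libraries 3 and 3B of Sham M PTs sample 3 (21192147 and 21054285 reads) were added, as the labels say the authors did.

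Each isolation was fitted over all its groups with edgeR 4.0.16 in R 4.3.3: TMM scaling, filterByExpr with a count of 10 and a total of 15, a mean for each group, and glmQLFTest, after tests on simulated data. PTs had 18369 genes and 8 residual degrees of freedom, endo 19910 and 7, and a joint fit of endo and PTs 21206 and 15, with common biological coefficients of variation of 0.392, 0.447 and 0.447. A gene was called at a Benjamini-Hochberg adjusted p under 0.05 over all genes tested, and each SE was computed as the absolute log2 change over the root of F. CPM use TMM library sizes. A marker score is the mean log2 CPM (prior count 2) less its mean over the isolation. P-values measure the spread between labelled samples; the notes say RNA came from 3 mice per sex and group.

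Alternatives were RLE scaling, no filter, DESeq2 1.42.0, effective length offsets, only the groups compared, marker score covariates, a replicate block, 1 technical library alone and each sample left out; leaving IRI M PTs sample 3 out of comparisons it is not part of was chosen after seeing the data. One gene of the pathway list is not reported here. The 10 genes and the lists were chosen with earlier results of these data known. All 10 genes are named, with at most the 4 smallest adjusted p of the pathway list per comparison among called genes and the 5 closest genes by correlation. Positions are from GENCODE M21 on GRCm38, and 7 of the 10 genes had a RefSeq promoter on GRCm38.p6. Depth limits counting precision only, and Arg2, with 0 reads in 2 sham tubule samples, had the widest SE in tubules.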

Additional observations from a re-analysis of the deposited data

Results flagged for a closer look

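Odc1 was flagged because its injury response in tubules differed between the sexes in a test of the difference itself: the log2 difference between the male and the female change was -1.24 ± 0.22 (SE, edgeR, adjusted p = 0.033). The log2 change was -1.33 in males, with the 3 IRI M PTs samples below all 3 Sham M PTs samples, and -0.09 in females, where the groups overlapped. The Odc1 call was lost in 10 of the 12 fits that left out 1 sample and in 4 of 8 other alternatives. Slc3a2, of the pathway list, was flagged for the same reason, with a log2 difference of 1.04 ± 0.18 (adjusted p = 0.033). How the Slc3a2 call held under the alternatives is not given here. The causes of both differences were not tested.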

How the results depend on the processing

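Of the 120 log2 values (10 genes in 12 comparisons), 12 were called, 95 were called under no setting, and no called value reversed. Of the 95, 48 changed sign at least once while staying uncalled. With only the groups compared in the fit, male tubule injury called 1 gene, sham male against sham female tubules 2, and both male endo comparisons (injury against sham, and injured males against injured females) 0. Over all genes those fits called 154, 1709, 2 and 132 in that order. DESeq2 called 3 in sham male against sham female tubules, 3 in the tubule sex difference in response, 3 in each of the same male endo comparisons, 1 in sham male against sham female isolates and 2 in sham isolates against sham tubules. Over all genes DESeq2 also called more than edgeR, at 1957 against 1065, 1332 against 157, 1177 against 172, 1096 against 298, 381 against 86 and 3518 against 2603 in that order. These counts of members are thus not by themselves a result about these genes. Without a low-count filter the counts were 2 in the tubule sex difference, 3 in male endo injury, 1 in sham endo between the sexes and 2 in injured endo between the sexes. Over all genes those fits called 399, 865, 250 and 824 in that order. Length offsets, and technical library 3 alone, gave 0 in the tubule sex difference and 0 in sham isolates against sham tubules. Over all genes length offsets called 59 and 1940 there, and technical library 3 alone 119 and 2402. RLE scaling gave 1 in sham endo between the sexes, where it called 90 of all genes. The distal marker score gave 1 in injured tubules between the sexes and 0 in the tubule sex difference, where 1743 and 0 of all genes were called. The proximal tubule score gave 0 in both male endo comparisons and 1 in sham endo between the sexes. Over all genes it called 0 in male endo injury, 40 in injured endo between the sexes and 171 in sham endo between the sexes. Leaving IRI M PTs sample 3 out of the shared fit gave 2 in sham tubules between the sexes. The cause of these shifts was not tested, except that smaller fits hold fewer samples.

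Leaving out 1 sample at a time gave 3 to 5 genes in male tubule injury, 1 in sham tubules between the sexes, 3 to 4 in injured tubules between the sexes, and 0 to 3 in the tubule sex difference. In isolates it gave 0 to 2 in male injury, 0 to 1 in sham between the sexes and 0 to 1 in injured isolates between the sexes. It gave 0 to 2 in sham isolates against sham tubules, 0 to 1 in injured ones, and 0 in the rest. The number of all genes called moved from 3488 to between 154 and 8203 in male tubule injury, from 2 to between 0 and 1167 in female tubule injury, from 1065 to between 550 and 2626 in sham tubules between the sexes, and from 157 to between 0 and 5892 in the tubule sex difference. It moved from 4271 to between 1710 and 8522 in injured tubules between the sexes. In isolates it moved from 172 to between 0 and 1177 in male injury. Between the sexes it moved from 298 to between 40 and 1096 in injured isolates, and from 86 to between 25 and 381 in sham ones. For isolates against tubules it moved from 2603 to between 1388 and 3518 in sham samples, and from 995 to between 399 and 1883 in injured ones.

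The replicate block gave 0 genes in the tubule sex difference and 0 in both male endo comparisons, and changed no other count. Replicate numbers are shared by groups, but the labels do not say that they mark a mouse, litter or day. Deviations from the group means of same-numbered samples correlated at -0.00 to 0.14 for male tubule injury, where 2 of 6 samples were closest to their own number, and no comparison had every pair over 0.1. Endo and PTs samples also share title numbers, and the fits without the block take all samples as independent. For injured isolates against injured tubules same-numbered pairs correlated at -0.43 to 0.575, with 9 of 12 samples closest to their own number, and for sham ones at -0.04 to 0.02, with 1 of 10. A loss under the block is therefore not read as a smaller effect. Depth limits mainly Arg2, Smox and Paox in sham tubules.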
